A study of Homo sapiens with 24 samples.

Results

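LN229-R and U87-R are glioblastoma cell lines made resistant to temozolomide, an alkylating drug, and the question here is where their responses to STM2457 differ. STM2457 inhibits METTL3, the enzyme at the core of the machinery that marks RNA with N6-methyladenosine (m6A). The quantity described is a difference of 2 effects for each gene: the change from DMSO to STM2457 in LN229-R minus the same change in U87-R, both on a log2(value + 1) scale. Of 22452 genes listed for LN229-R and 28144 for U87-R, 18979 were listed for both, and the 15848 with a mean of at least 10 over the 12 libraries were tested.

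Each line contributed 3 libraries after 96 h in 50 µM STM2457 and 3 in DMSO, out of 24 RNA-seq libraries in the whole series. All 4 groups grew in medium that also held 50 µM temozolomide, so no value below comes from resistant cells without it. LN229-R was kept in DMEM with 5% serum and pyruvate and sequenced with a Watchmaker kit, while U87-R was kept in EMEM with 10% serum and sequenced with a TruSeq Stranded kit. Genetic background, medium, serum and library kit therefore change together and cannot be told apart in any difference given here. The labels do not say that replicates were separate cultures, so p-values measure the spread between these libraries, which may be technical. In bulk RNA, fewer cells of one kind and less RNA per cell cannot be told apart.

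m6A is deposited co-transcriptionally by METTL3 together with METTL14 and WTAP, and is read by YTH-domain proteins. Of these, YTHDF2 is known for leading marked mRNAs to decay. FTO and ALKBH5 are demethylases. Blocking the writer therefore touches many transcripts at a time, and the transcripts that move depend on what a cell expresses.

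Normalized totals ran from 2.12e+07 to 2.87e+07 per library. Both LN229-R libraries with the number 2 stood apart from their replicates. In the DMSO one, ribosomal protein mRNAs made up 4.29% of the total against 2.62% and 2.77% in the other two, and mitochondrial transcripts 6.05% against 4.76% and 4.65%. The STM2457 one had by far the highest values of several interferon-stimulated and HLA genes, given beside those results. The names of the LN229 family also conflict within the deposit. In a second table that sets untreated LN229-R against LN229, all 6 columns matched the same-numbered library of the other name. The SD of their log2 ratios to that library was 0.0579 to 0.0619 over at least 11054 genes, against 0.346 to 0.406 to the library of their own name. For the U87 family, 6 of 6 columns matched their own name. Names below are those of the treatment tables, and counts with LN229 libraries in place of LN229-R (names exchanged) are given for some lists. In U87-R the libraries with the number 3 had the highest mitochondrial share, 6.94% in DMSO against 6.07% and 6.27%, and 8.03% in STM2457 against 6.7% and 6.88%. Vimentin (VIM) averaged 70544 in LN229-R and 104311 in U87-R under DMSO, whereas the astrocyte marker GFAP averaged 31.8 and 6.86. Of 10 immune cell markers only CD68 passed the filter on low values, as did 2 of 7 endothelial, 4 of 8 epithelial and 5 of 7 neuronal markers.

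STM2457 changed more genes in LN229-R than in U87-R, and a large share of the change was not common to both lines. At an adjusted p under 0.05 (limma, Benjamini-Hochberg over the 15848 genes), 5999 genes changed in LN229-R, 3394 up and 2605 down, which is 37.9% of those tested. In U87-R 2221 changed, 1284 up (8.1%) and 937 down, or 14%. The difference itself passed for 2041 genes, or 12.9%: 1351 were higher in LN229-R (8.52%) and 690 lower (4.35%). With equal upper quartiles the LN229-R split was 3070 up and 3210 down, and with equal totals the split of the difference was 1211 higher and 910 lower. Across all 15848 genes, the 2 effects had a Pearson correlation of 0.321 and a Spearman correlation of 0.379, as a description over genes that share the same libraries. With the replicate number as a block, where same-numbered libraries deviated together, 3825 differences passed, and U87-R changes rose in number to 4511. The U87-R count is the less settled one: it was 542 without STM2457 replicate 2, 836 without DMSO replicate 2, 1141 without DMSO replicate 1 and 1212 without STM2457 replicate 1. The LN229-R count was 3948 without DMSO replicate 3.

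**Figure D1:**
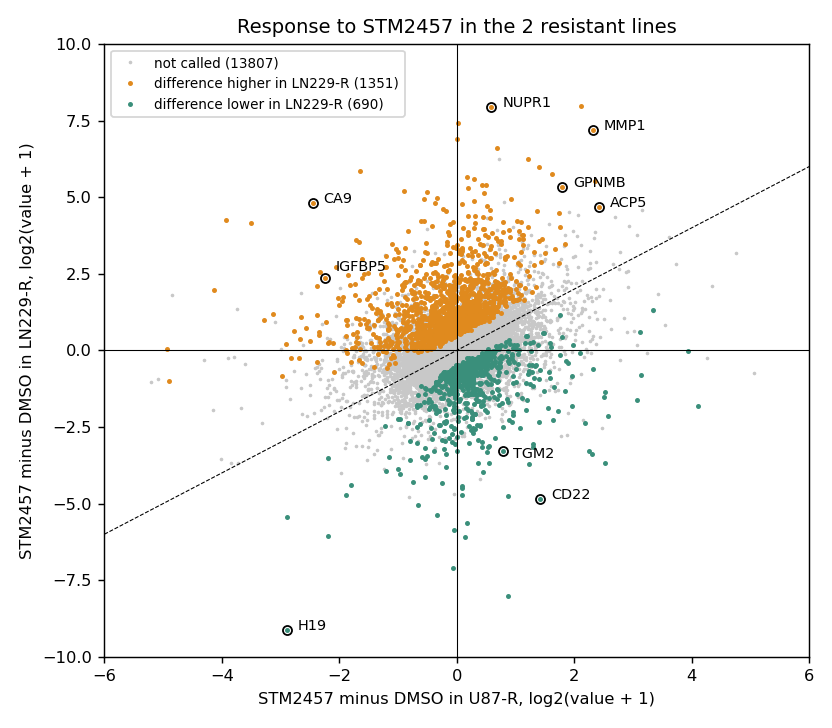
Change from DMSO to STM2457 in U87-R (horizontal) and LN229-R (vertical) for 15848 genes, log2(value + 1). Each point is 1 gene, the dashed line marks equal change, and colours mark the 1351 and 690 genes whose difference passed an adjusted p of 0.05; CA9 lies far above the line and H19 and CD22 far below it.

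Few genes were driven in opposite directions. Of the 1347 genes that changed in both lines, 855 rose in both and 344 fell in both, while 148 moved in opposite directions. Of these 148, 115 rose in LN229-R and fell in U87-R, and 33 did the reverse. All 148 also passed the test of the difference, which is nearly given for called effects of opposite sign in the same libraries. Most of the genes with a called difference were called in LN229-R alone: 868 rose there and 492 fell there with no call in U87-R. Another 136 fell in U87-R alone and count as higher in LN229-R, and 85 rose in U87-R alone. Where both lines rose, 174 of 855 rose further in LN229-R and 8 further in U87-R.

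A clear contrast lay in the list of hypoxia, glycolysis and lactate export, whose genes are known targets of the hypoxia-inducible factors in low oxygen. All 35 listed genes were tested. In U87-R 30 fell and none rose, beside 5.91% of all genes that fell there. In LN229-R 12 rose and 3 fell, beside 21.4% and 16.4% of all genes. The difference was called higher in 22 of 35 and lower in none, with a median of 1.27 against -0.01 for all genes tested. Of all genes, 8.52% were called higher and 4.35% lower, and the counts of all lists below stand beside these shares. Leaving out each library in turn gave 18 to 25 higher and none lower, with 18 and a median of 1.12 without U87-R DMSO replicate 3. Of the 35, 10 rose in LN229-R and fell in U87-R: CA9, SLC16A3, SLC2A1, SLC2A3, ALDOC, ENO2, EGLN3, ADM, BNIP3L and ERO1A. The 3 that fell in both lines were GAPDH, PFKL and PFKFB3. This list was drawn up with earlier results of these data known, so its count is not independent evidence of its direction.

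Short stretches of promoter are shown for 4 of these genes, because hypoxia-inducible factors bind the core ACGTG. The sequences come from RefSeq promoters (GRCh38.p14), 5′ to 3′ on the gene's strand, and capitals mark each match to ACGTG or its reverse complement CACGT. The CA9 window is chr9:35673828-35673927 (plus strand), immediately before the start of the gene at 35673928, and the ALDOC window is chr17:28576896-28576995 (minus strand), also ending at the base before its start. BNIP3 is shown at chr10:131982022-131982121 (minus strand) and ENO2 at chr12:6914397-6914496 (plus strand).
CA9: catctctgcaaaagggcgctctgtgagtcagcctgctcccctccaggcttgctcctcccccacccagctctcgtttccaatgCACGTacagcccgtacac
ALDOC: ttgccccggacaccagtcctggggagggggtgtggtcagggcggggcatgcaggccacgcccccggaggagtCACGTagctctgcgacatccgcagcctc
BNIP3: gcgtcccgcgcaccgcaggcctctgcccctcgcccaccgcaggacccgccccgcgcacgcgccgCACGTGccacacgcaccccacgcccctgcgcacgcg
ENO2: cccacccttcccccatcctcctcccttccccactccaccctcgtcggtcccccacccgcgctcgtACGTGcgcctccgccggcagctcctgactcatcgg
In BNIP3 the matches on both strands overlap, so that the run CACGTG holds 2 of them. Among the 11298 tested genes with a promoter in the table (250 bases before to 50 after the start), 26.6% held ACGTG on either strand. Of the hypoxia list 14 of 31 did (45.2%), and of its members called higher in the difference 11 of 18 (61.1%). For all genes called higher the share was 27.4%, and for all called lower 26.4%. The hypoxia list is made of known targets of these factors, so a raised share could be expected there, and no cause was tested by it. A match is a run of letters in this window and not a measured binding site.

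CA9 encodes carbonic anhydrase IX, a cell-surface enzyme that handles acid made by glycolysis, and showed the widest gap of the list. Its normalized values in LN229-R were 0, 3.05 and 0.89 in DMSO and 43.3, 109 and 32.8 in STM2457. In U87-R they were 7084, 7174 and 16057 in DMSO and 1373, 1318 and 2745 in STM2457. Neither line's groups overlapped, which held for 52.5% of all tested genes in LN229-R and 34.5% in U87-R. In U87-R, replicate 3 was the highest for CA9 in both groups; it also had the highest mitochondrial share in both, whose part was not tested. CA9 went up from near 0 in one line and down from a high level in the other. The difference was 7.25 (SE 0.76, adjusted p = 6.5e-05). CA9 lies at chr9:35673928-35681159 (GRCh38). Levels of the 2 lines were normalized in separate tables, so only the changes, not the levels, were tested against each other.

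Sugar uptake and lactate export followed the same layout. SLC16A3, the lactate exporter MCT4, had values of 719, 697 and 847 in DMSO and 5663, 4559 and 5182 in STM2457 in LN229-R. In U87-R it had 3889, 3960 and 6003 and then 1825, 2047 and 3432. The LN229-R groups lay far apart and the U87-R groups did not overlap, with a difference of 3.71 (SE 0.31, adjusted p = 1.1e-05). SLC2A1, the glucose transporter GLUT1, stood at 3061, 2408 and 2814 and then 5021, 4203 and 5829 in LN229-R, against 3901, 4640 and 6775 and then 1403, 1259 and 2288 in U87-R. Its effects were 0.86 (SE 0.15) and -1.64 (SE 0.25), and the groups of neither line overlapped. SLC2A3, the transporter GLUT3, rose by 1.75 in LN229-R and fell by 0.55 in U87-R.

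In the glycolytic chain itself, isoforms with a narrow tissue pattern moved in both lines. ALDOC, the brain form of aldolase, went from 65.9, 74.4 and 52.8 to 279, 223 and 261 in LN229-R and from 2030, 2410 and 2981 to 1099, 1283 and 1463 in U87-R. ENO2, the neuronal enolase, went from 575, 540 and 668 to 2326, 1592 and 1927, and from 7824, 8049 and 9576 to 4848, 5289 and 5634. No groups overlapped for either gene, and the differences were 2.91 (SE 0.26) and 2.39 (SE 0.20). The widely used PGK1 (phosphoglycerate kinase) differed through U87-R only: it had 7773, 5897 and 7310 and then 9426, 5557 and 7974 in LN229-R, which overlap, but dropped from 20493, 20371 and 34807 to 8199, 8503 and 12563 in U87-R. Its difference was 1.46 (SE 0.35, adjusted p = 0.015).

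BNIP3, P4HA1 and VEGFA fell in U87-R with no call in LN229-R. BNIP3, a mitophagy receptor, stood at 1259, 1255 and 1367 and then 1631, 1403 and 1586 in LN229-R (effect 0.25, adjusted p = 0.098, groups apart). In U87-R it went from 3112, 3038 and 5350 to 944, 1092 and 1470, a fall with no overlap, and the difference was 1.93 (SE 0.29). P4HA1, a collagen prolyl hydroxylase, had a difference of 1.44 (SE 0.16) and VEGFA, the endothelial growth factor, of 1.62 (SE 0.40). EGLN3, an oxygen sensor that is itself induced by low oxygen, rose by 1.49 in LN229-R and fell by 1.47 in U87-R. All 11 hypoxia genes named in these paragraphs kept their call when any of the 12 libraries was left out. They were picked after their values were seen, so this does not describe the whole list.

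**Figure D2:**
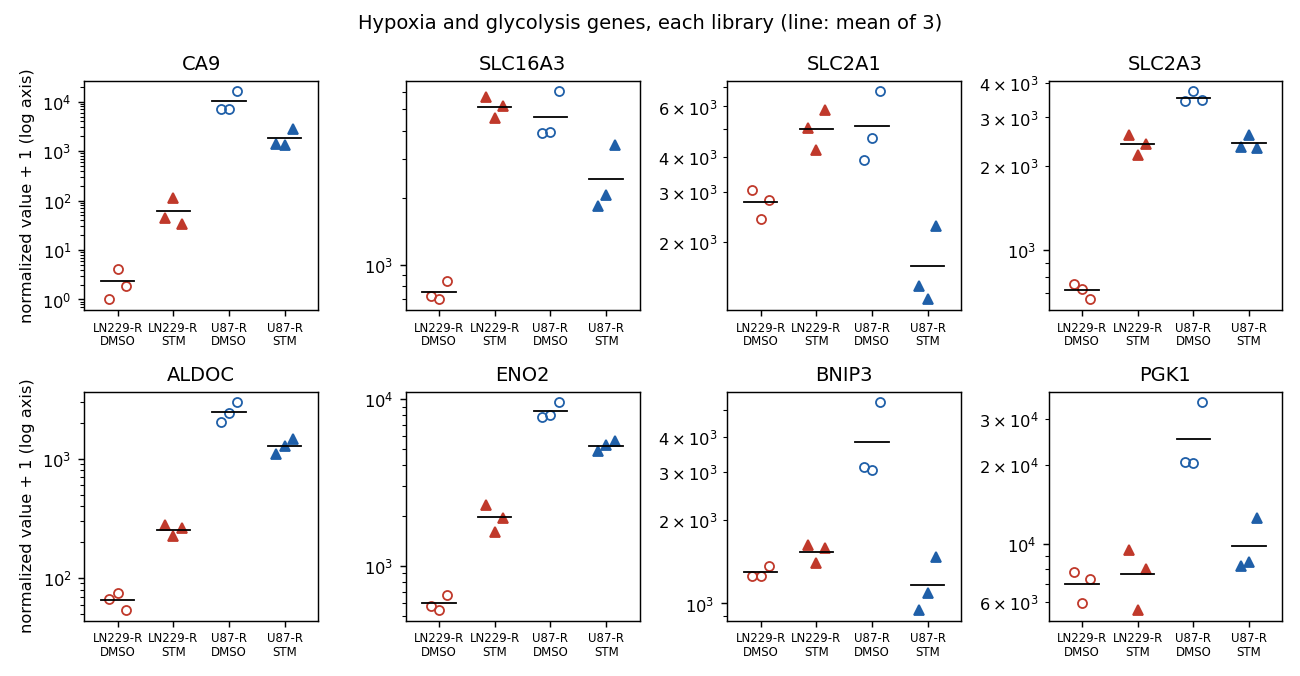
Normalized value + 1 of 8 hypoxia and glycolysis genes in each library, on a log axis that differs between panels; open circles are DMSO, triangles STM2457, red LN229-R, blue U87-R, and the line is the mean of 3. CA9 runs from 0 to 109 in LN229-R and from 16057 down to 1318 in U87-R.

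MHC class I genes, which present peptides to CD8 T cells, formed the next clear contrast. All 15 listed members were tested. In LN229-R 12 rose, beside 21.4% of all genes, and none fell. In U87-R 8 fell, beside 5.91% of all genes, and none rose. The difference was called higher in 13, beside 8.52% of all genes, and lower in none. Its median was 1.35, and every one of the 15 had a positive difference. Of these, 5 rose in LN229-R and fell in U87-R: HLA-B, HLA-C, HLA-F, B2M and ERAP1. HLA genes are near-identical to each other in parts, and how shared reads were split between them is not given in the sources used here, so single HLA values are uncertain.

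NLRC5 is the transcriptional activator of the class I genes. It had values of 126, 110 and 108 in DMSO and 424, 662 and 505 in STM2457 in LN229-R, against 1586, 1476 and 1479 and then 1564, 1327 and 1552 in U87-R. The LN229-R groups lay apart and the U87-R groups overlapped (difference 2.21, SE 0.22, adjusted p = 4.2e-05). ERAP1, a peptide trimming enzyme of the endoplasmic reticulum, went from 1683, 1412 and 1587 to 2745, 3431 and 3035 in LN229-R and from 1948, 2020 and 2204 to 1621, 1463 and 1432 in U87-R. It moved up in the first and down in the second with no overlap, and the difference was 1.42 (SE 0.16).

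HLA-B stood at 1825, 3539 and 2139 and then 4627, 25683 and 7091 in LN229-R, and at 26470, 29237 and 31324 and then 16203, 17520 and 16695 in U87-R. The LN229-R value of 25683 belongs to STM2457 replicate 2 and was far above the other two. The difference for HLA-B was 2.76 (SE 0.64, adjusted p = 0.013) and ranged from 2.04 to 3.28 as single libraries were left out. HLA-C had a difference of 2.64 (SE 0.55) and HLA-E, a nonclassical member, of 1.63 (SE 0.24). B2M, the shared light chain, had a difference of 1.60 (SE 0.43, adjusted p = 0.027), which lost its call without any one of 7 libraries. Without LN229-R STM2457 replicate 2 the list had 14 called higher and a median of 1.10, so the count did not rest on that library.

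**Figure D3:**
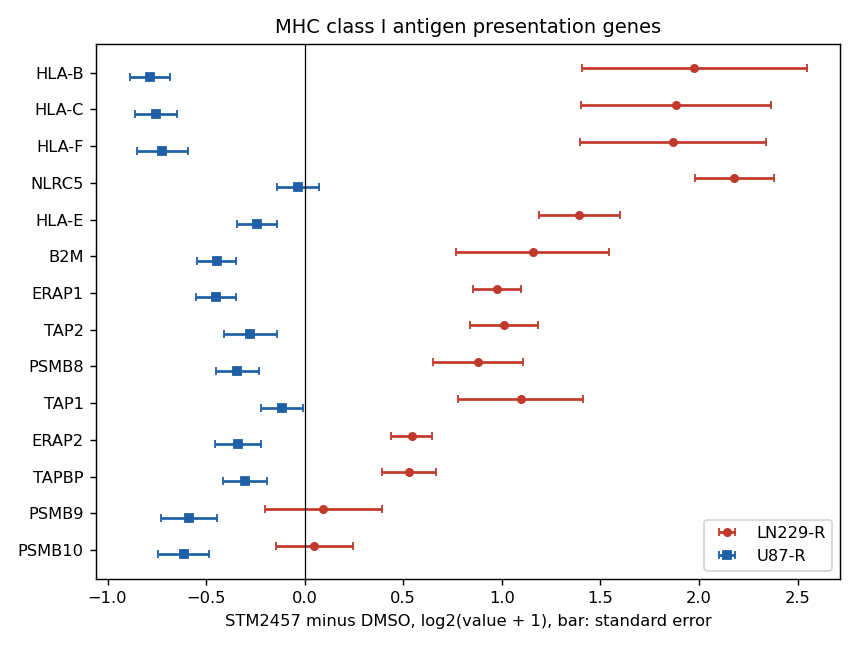
Change from DMSO to STM2457 (log2, with its standard error) of 14 MHC class I genes in LN229-R (circles) and U87-R (squares), ordered by the difference. All 14 points of LN229-R lie above 0 and all 14 of U87-R below, and NLRC5 sits near 0 in U87-R.

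Interferon-stimulated genes, which block virus replication and signal its presence, went the same way in LN229-R but with much wider spread. Of 41 tested, 25 rose in LN229-R and none fell, beside 21.4% and 16.4% of all genes. In U87-R 1 rose and 3 fell, beside 8.1% and 5.91% of all genes. The median difference was 1.60, and 39 of 41 differences were positive. The difference was called higher in 11, beside 8.52% of all genes, and lower in none. The count was 24 with the replicate block. With the LN229 names exchanged it was 4 of 41, a share near that of all genes, of which 1517 of 15986 were then higher. With the names kept, the count ranged from 6 to 18 when single libraries were left out. It was 6 without U87-R DMSO or STM2457 replicate 2, and 7 without LN229-R DMSO replicate 1 or 3 or U87-R STM2457 replicate 3. It was 18 without any one of the 3 LN229-R STM2457 libraries, and the median without replicate 2 of that group was 0.91.

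ISG15, a ubiquitin-like protein, shows the spread: 44.5, 44.7 and 51.8 in DMSO and 291, 3307 and 317 in STM2457 in LN229-R, against 197, 166 and 178 and then 229, 266 and 339 in U87-R. STM2457 replicate 2 lay far above its replicates, and neither line's groups overlapped. Its difference of 3.21 (SE 0.94, adjusted p = 0.039) lost its call without any one of 9 libraries. IFI44L behaved alike, at 123, 2779 and 75.8 in the STM2457 libraries of LN229-R, with a difference of 4.73 (SE 1.34) that lost its call without any one of 7 libraries. Members with a more even rise were ISG20, an exonuclease, at 72, 74.8 and 69.7 and then 268, 353 and 304 in LN229-R (difference 2.42, SE 0.32), and IFIH1, the RNA sensor MDA5, with a difference of 1.78 (SE 0.33). Both kept their call without each library in turn. The one immune cell marker above the filter on low values was CD68, also a lysosomal protein, which averaged 66.3 in DMSO and 431 in STM2457 in LN229-R.

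NF-kB targets and inflammatory cytokines had 8 of 22 tested members higher in the difference, beside 8.52% of all genes, and none lower (median 0.81). CCL2, a monocyte chemokine, stood at 564, 1047 and 898 and then 1673, 5774 and 4220 in LN229-R, and at 153, 148 and 461 and then 46, 26.5 and 57 in U87-R. It rose in the first and fell in the second, with no overlap in either (difference 4.47, SE 0.70, adjusted p = 0.0011). CSF1, the macrophage growth factor, rose evenly in LN229-R from 590, 562 and 517 to 2586, 2531 and 2717, while U87-R had 4884, 4691 and 5251 and then 4880, 5090 and 5234. The U87-R groups overlapped, and the difference was 2.19 (SE 0.13, adjusted p = 1.3e-06). ICAM1, an adhesion molecule, had a difference of 2.60 (SE 0.40) and CXCL1, a neutrophil chemokine, of 2.72 (SE 0.61).

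Antioxidant genes of the NRF2 programme rose widely in LN229-R and little in U87-R. Of 30 tested, 26 rose in LN229-R, beside 21.4% of all genes, and none fell. In U87-R 5 rose and 1 fell, beside 8.1% and 5.91% of all genes. The difference was called higher in 19, beside 8.52% of all genes, and lower in none (median 0.92). OSGIN1, an oxidative stress growth inhibitor, led the list with 247, 234 and 273 in DMSO and 2957, 2499 and 3588 in STM2457 in LN229-R, against 851, 851 and 774 and then 1354, 1521 and 1304 in U87-R. It rose in both lines without overlap, and the rise was larger in LN229-R by 2.81 (SE 0.19, adjusted p = 2.7e-06). HMOX1, heme oxygenase, rose by 2.83 in LN229-R and 0.48 in U87-R. SRXN1, sulfiredoxin, rose by 2.17 and 0.70.

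GCLM, the regulatory subunit of glutathione synthesis, was the one member that rose in LN229-R (1431, 916 and 1401 to 2185, 1682 and 2340) and fell in U87-R (679, 636 and 529 to 349, 353 and 311). The groups of both lines were apart and the difference was 1.60 (SE 0.26). NQO1, a quinone reductase often used to read NRF2, had a difference of 0.59 (SE 0.20, adjusted p = 0.070, 95% interval 0.16 to 1.01), which missed the threshold. The iron storage chains FTL and FTH1, also counted among 12 genes of iron handling of which 6 were higher and none lower, had differences of 1.84 (SE 0.34) and 1.15 (SE 0.27). The pump ABCC3 (MRP3), which exports conjugated drugs, had a difference of 2.39 (SE 0.36).

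Targets of ATF4, the factor of the integrated stress response, had 10 of 29 tested members higher in the difference and none lower (median 0.56). Of all genes, 8.52% were higher. NUPR1, a stress-induced chromatin protein at chr16:28532708-28538974, had the largest higher difference among genes with a mean of at least 100 over the 12 libraries and 20 in each table. Its values were 2.14, 10.5 and 0.558 in DMSO and 548, 1805 and 876 in STM2457 in LN229-R, and 893, 847 and 532 and then 1019, 1298 and 1036 in U87-R. It went from near 0 to at least 548 in LN229-R with no call in U87-R, a difference of 7.37 (SE 0.82, adjusted p = 9.9e-05). NUPR1 met the mean of 20 in LN229-R only through the STM2457 group, so its place in this ranking was set by its own rise. SLC7A5, the large neutral amino acid transporter LAT1, rose from 6884, 3624 and 7353 to 41144, 41350 and 34024 in LN229-R, and U87-R had 6495, 5717 and 4802 and then 4101, 4780 and 5700. STC2, a secreted glycoprotein, rose from 24.8, 32.5 and 35.6 to 138, 302 and 216 in LN229-R and fell from 5822, 6492 and 4398 to 2278, 2331 and 2428 in U87-R. The differences were 2.99 (SE 0.33) for SLC7A5, whose U87-R groups overlapped, and 3.95 (SE 0.34) for STC2.

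Chaperones of the endoplasmic reticulum had calls in the other direction. Of 25 tested, 6 were lower in the difference and none higher, beside 4.35% of all genes lower, and with the replicate block 9 were lower and 2 higher. HSP90B1 (GRP94), an abundant luminal chaperone, fell from 70542, 82714 and 64973 to 14947, 17624 and 13910 in LN229-R and from 37163, 33855 and 22926 to 16440, 17844 and 13314 in U87-R. Both falls were without overlap, and that in LN229-R was larger by 1.27 (SE 0.27, adjusted p = 0.0081). HYOU1, a co-chaperone, had a difference of -1.24 (SE 0.15), and XBP1, a transcription factor of the unfolded protein response, of -1.21 (SE 0.29). MANF, a secreted chaperone, fell in LN229-R and had an effect of 0.01 (SE 0.17) in U87-R, with a difference of -1.43 (SE 0.23).

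Lysosomal genes rose mainly in LN229-R, and 11 of them in both lines. Of 49 tested, 32 rose and 1 fell in LN229-R, beside 21.4% and 16.4% of all genes. In U87-R 12 rose and 2 fell, beside 8.1% and 5.91% of all genes. The difference was called higher in 23 and lower in 2 (median 0.59), beside 8.52% and 4.35% of all genes. The factors TFEB, TFE3 and MITF bind the run CACGTG in promoters of this class, which was found in 9 of 33 lysosomal promoters (27.3%) and 9.97% of all tested. Among members called higher it was found in 3 of 14 (21.4%), a lower share than in the whole list. A match is not a measured binding site, and no cause was tested by these shares. The promoter of NEU1, a sialidase, is shown as one that holds CACGTG, in capitals, at chr6:31862912-31863011 (GRCh38.p14, minus strand).
NEU1: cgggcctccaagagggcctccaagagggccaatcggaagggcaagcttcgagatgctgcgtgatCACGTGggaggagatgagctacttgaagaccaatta
NEU1 rose from 1627, 1679 and 1711 to 7011, 6357 and 5970 in LN229-R and from 1172, 1095 and 1007 to 1656, 1807 and 1857 in U87-R. Neither line's groups overlapped, and the difference was 1.24 (SE 0.14, adjusted p = 0.00011).

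GPNMB, a lysosomal and melanosomal glycoprotein, had the largest LN229-R effect of the list. It went from 1524, 1080 and 1728 to 64337, 44913 and 65541 in LN229-R, and stood at 1255, 694 and 146 and then 2434, 1846 and 1201 in U87-R, where the groups overlapped. The difference was 3.54 (SE 0.80, adjusted p = 0.011). CTSS, a cysteine protease, rose in both lines, by 3.07 (SE 0.16) and 0.86 (SE 0.15). LAMP2, a membrane protein of lysosomes, had 3303, 2983 and 2464 and then 3186, 2873 and 2443 in U87-R but rose from 9147, 8639 and 8383 to 22090, 21363 and 20684 in LN229-R. One of the 2 lower members, CTSH, another cysteine protease, rose in both lines and more in U87-R (difference -2.02, SE 0.44), from a U87-R level of at most 3.04 in DMSO.

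The proton pump that acidifies lysosomes had 4 of 21 tested subunits higher and none lower, beside 8.52% and 4.35% of all genes. With the replicate block 9 were higher. Its small subunit ATP6V0E1 rose from 1459, 1936 and 1638 to 7316, 7712 and 7007 in LN229-R and from 1311, 1220 and 1322 to 1982, 1967 and 2126 in U87-R, both without overlap (difference 1.48, SE 0.15). Of 15 genes of the MiT/TFE factors and their folliculin circuit, 3 were higher and 1 lower, and with the names exchanged none was higher and 1 lower. MITF itself rose in LN229-R by 1.33 (SE 0.16), with a difference of 0.95 (SE 0.26, adjusted p = 0.027) that lost its call without any one of 6 libraries. FNIP2, a folliculin partner, was lower in the difference (-1.07, SE 0.26) and rose only in U87-R by the test. Melanosome genes, which MITF is known for in pigment cells, had 5 of 9 tested higher, out of 17 listed. DCT, an enzyme of melanin synthesis, went from 19.1, 8.35 and 7.15 to 3328, 3532 and 2057 in LN229-R and stayed at or below 8.8 in U87-R (difference 5.86, SE 0.78, with U87-R near 0). DCT passed the filter on low values only through the LN229-R STM2457 group, so its place among the 5 was set by its own rise. MLPH, a melanosome transport linker, rose from 279, 268 and 344 to 3207, 3311 and 3081 in LN229-R and had 8380, 8236 and 8782 and then 8393, 7887 and 9306 in U87-R.

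Cholesterol synthesis genes rose in both lines, 19 of 24 in LN229-R and 13 in U87-R, beside 21.4% and 8.1% of all genes. Of them, 13 rose in both lines. The difference was higher in 7, beside 8.52% of all genes, and lower in none (median 0.34). It was higher in 4 with the LN229 names exchanged. LSS, lanosterol synthase, rose from 2702, 2728 and 3081 to 10029, 10243 and 10280 in LN229-R and from 4279, 4313 and 4047 to 7619, 7178 and 6942 in U87-R. Both rises were without overlap and the one in LN229-R was larger by 1.06 (SE 0.13). INSIG1, which holds back the sterol-sensing machinery, had a difference of 1.37 (SE 0.21).

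**Figure D4:**
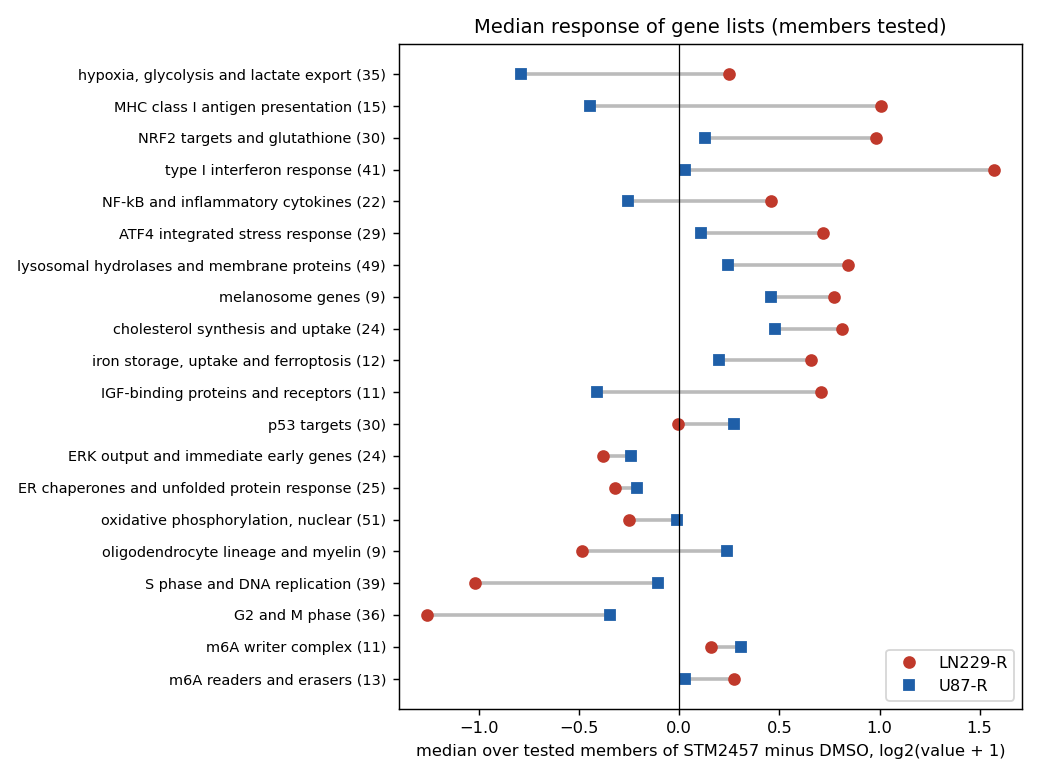
Median change from DMSO to STM2457 (log2) over the tested members of 20 gene lists in LN229-R (circles) and U87-R (squares), with the number of members in brackets. The hypoxia list stands at 0.25 in LN229-R and -0.79 in U87-R, MHC class I at 1.01 and -0.45, and the m6A writer complex at 0.16 and 0.31.

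The ERK pathway carries growth factor signals. Of 24 of its output genes tested, 7 were lower in the difference, beside 4.35% of all genes, and 1, MYC, was higher; 14 differences were below 0 and 10 above. EGR1, an immediate early transcription factor, stood at 9004, 19014 and 10310 in DMSO and 898, 538 and 813 in STM2457 in LN229-R, and at 2528, 2243 and 2574 and then 1297, 1251 and 1190 in U87-R. It fell in both lines without overlap, further in LN229-R by a difference of -3.07 (SE 0.34, adjusted p = 9.3e-05). ETV4, a transcription factor switched on by ERK, fell from 1542, 2416 and 1663 to 174, 257 and 242 in LN229-R and had 691, 740 and 650 and then 635, 657 and 740 in U87-R (difference -3.01, SE 0.26). SPRED2, a feedback inhibitor of the pathway, fell in LN229-R by 0.77 and rose in U87-R by 0.51. MYC rose in LN229-R from 257, 241 and 353 to 864, 682 and 835, with overlapping U87-R groups (difference 1.57, SE 0.24).

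Receptors upstream of that pathway moved unevenly, with 3 of 15 receptor tyrosine kinases higher and 2 lower, beside 8.52% and 4.35% of all genes. The counts were 7 and 2 with the replicate block, and 2 and 1 without LN229-R DMSO replicate 1. FGFR1 fell from 14792, 18590 and 12374 to 2409, 2915 and 2513 in LN229-R and from 7709, 8001 and 7730 to 5819, 5580 and 5898 in U87-R, without overlap in either (difference -2.09, SE 0.19). PDGFRB rose by 1.14 in LN229-R and fell by 0.85 in U87-R. Of the MYC and MAX network 4 of 13 were higher and 1 lower. The lower one was MYCN, at 1947, 4584 and 2689 and then 97.2, 366 and 168 in LN229-R and at most 1.61 in U87-R (difference -4.42, SE 0.77).

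Of 30 tested targets of p53, the damage-responsive tumour suppressor, 9 were lower in the difference and none higher. In U87-R 8 rose and none fell, beside 8.1% and 5.91% of all genes. In LN229-R 6 rose, a share near the 21.4% of all genes, and 9 fell, beside 16.4%. TP53I3, an oxidoreductase, had 734, 643 and 758 and then 860, 750 and 899 in LN229-R but rose from 200, 148 and 210 to 467, 518 and 708 in U87-R (difference -1.36, SE 0.25). PHLDA3, an inhibitor of AKT, fell from 5361, 8078 and 4895 to 2746, 3339 and 3009 in LN229-R and rose from 2653, 2778 and 2109 to 3842, 4169 and 3662 in U87-R. It was the one member that moved in opposite directions, with no overlap in either line (difference -1.62, SE 0.24, adjusted p = 0.00079). GADD45A, a stress sensor, and DDB2, a nucleotide excision repair protein, fell in LN229-R only by the test, with differences of -1.46 (SE 0.21) and -0.95 (SE 0.17). CDKN1A, the cell cycle inhibitor p21, had a difference of -0.54 (SE 0.27, adjusted p = 0.21, 95% interval -1.11 to 0.04).

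Proliferation genes leaned lower in the difference without a call, and some of them fell in each line. Of the S phase genes 9 of 39 fell in LN229-R, and 4 fell and 2 rose in U87-R. Of the G2 and M phase genes 7 of 36 fell in LN229-R, and 10 fell and 1 rose in U87-R. None of either list rose in LN229-R. Of all genes 16.4% fell and 21.4% rose in LN229-R, and 5.91% and 8.1% in U87-R. Of 39 S phase genes and 36 G2 and M phase genes none passed in the difference (limma), with medians of -0.74 and -0.90 and 38 of 39 and 36 of 36 differences below 0. With the replicate block 19 and 24 were lower, and with the names exchanged 9 and 4. At an unadjusted p under 0.05, 6 and 1 passed. Without LN229-R STM2457 replicate 2 the medians were -0.16 and -0.28, and without LN229-R DMSO replicate 2 they were -0.92 and -1.20. MKI67, a marker of cycling cells, stood at 7623, 3656 and 8291 in DMSO and 4462, 997 and 3894 in STM2457 in LN229-R. Both LN229-R libraries numbered 2 were low, and their part in these medians beyond leaving one out was not tested. Its difference was -1.24 (SE 0.65, adjusted p = 0.24).

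Of 51 nuclear genes of oxidative phosphorylation 7 were lower and none higher, and 11 with the replicate block; 4 were lower without any one of 6 libraries (replicate 3 of each of the 4 groups, and U87-R DMSO and STM2457 replicate 2). NDUFB9, a complex I subunit, had the values 2618, 2870 and 2603 and then 1872, 1871 and 1903 in LN229-R and 1565, 1689 and 1393 and then 1727, 1892 and 2001 in U87-R (difference -0.79, SE 0.14). Of 29 SR proteins and hnRNPs, which bind pre-mRNA, 2 were lower, a share near the 4.35% of all genes. That count was 15 with the block, 8 with the LN229 names exchanged and 6 without LN229-R DMSO replicate 2. Of 28 genes of homologous recombination 2 were lower, also near that share, and 14 with the block and 8 with the names exchanged.

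Differences of matrix and adhesion genes went both ways, while in the lists counted below more genes fell than rose in each line. Of 27 collagens 10 fell and 2 rose in LN229-R, and 13 and 1 in U87-R. Of 26 matrix glycoproteins, proteoglycans and crosslinkers 16 fell and 4 rose in LN229-R, and 12 and 0 in U87-R. Of 26 integrin and laminin subunits the counts were 11 and 5, and 8 and 3. Of all genes 16.4% fell and 21.4% rose in LN229-R, and 5.91% and 8.1% in U87-R. In the difference 4 collagens were higher and 3 lower (6 and 5 with the replicate block). Of the matrix glycoproteins, proteoglycans and crosslinkers 6 were higher and 6 lower. The lower count was 3 without any one of LN229-R DMSO replicates 1 and 2, LN229-R STM2457 replicate 3 and U87-R STM2457 replicate 2, with 5 higher each time. It was 4 without LN229-R STM2457 replicate 1. THBS1, thrombospondin, rose from 4258, 2530 and 4764 to 14391, 6710 and 18539 in LN229-R and fell from 651, 650 and 704 to 273, 177 and 91.8 in U87-R, without overlap in either (difference 3.72, SE 0.56). VCAN, versican, fell from 21270, 17588 and 19123 to 3528, 2405 and 3028 in LN229-R (difference -2.98, SE 0.19). In U87-R it had 4269, 4766 and 4645 and then 5442, 5942 and 5145, higher in STM2457 without overlap but with no call (effect 0.27, adjusted p = 0.095). COL1A1, a fibrillar collagen, had 41.5, 27.2 and 55.5 and then 73.9, 126 and 53.9 in LN229-R, which overlap, and fell from 11322, 12072 and 16308 to 3883, 2798 and 3999 in U87-R. TIMP2, a metalloproteinase inhibitor, rose by 1.71 in LN229-R and fell by 0.45 in U87-R. LAMA4, a laminin chain, fell by 2.30 in LN229-R with an effect of 0.02 (SE 0.17) in U87-R.

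Of 11 genes of IGF signalling 6 were higher and 1 lower, beside 8.52% and 4.35% of all genes. IGFBP5, an IGF-binding protein, rose from 1887, 1492 and 1077 to 10893, 5659 and 6732 in LN229-R and fell from 994, 967 and 1805 to 354, 337 and 134 in U87-R. The groups were apart in both lines (difference 4.61, SE 0.53, adjusted p = 0.00012). IGF1, the ligand, was listed at 0 in all 3 DMSO libraries of LN229-R and at 74.5, 49.2 and 50.2 in STM2457, with at most 7.52 in U87-R. IGF1 passed the filter on low values only through the LN229-R STM2457 group, so its place among the 6 was set by its own rise. Of 19 CCN and YAP target genes 6 were higher and none lower, and 9 and 2 with the block. CCN1, a matricellular protein, rose from 570, 490 and 602 to 2105, 1158 and 2069 in LN229-R, and U87-R had 494, 496 and 481 and then 333, 347 and 399 (difference 2.08, SE 0.28).

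Among the genes picked for the size of their difference, several lie outside the lists. PRUNE2 rose from 101, 81.1 and 105 to 4141, 2326 and 2640 in LN229-R and stood at 364, 586 and 450 and then 301, 300 and 327 in U87-R (difference 5.50, SE 0.31). C1S, a protease of the complement system, rose from 111, 162 and 74.5 to 3619, 10458 and 4191 in LN229-R and had 3048, 2679 and 3496 and then 4595, 3596 and 3185 in U87-R (difference 5.31, SE 0.49). FGF7, a secreted growth factor, rose from 26.3, 20.7 and 25.7 to 632, 481 and 735 in LN229-R, with overlapping U87-R groups (difference 4.84, SE 0.35). NECAB2 had a difference of 6.88, PHACTR1 of 5.13 and CSMD1 of 4.48, each from LN229-R levels of at most 40.8 in DMSO.

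FGF11, an intracellular member of its family, rose in LN229-R from 21.6, 12.2 and 16.9 to 170, 260 and 194 and fell in U87-R from 177, 193 and 322 to 63.6, 65.3 and 82.1 (difference 5.21, SE 0.42). F11R, a tight junction protein, did the same from 18.7, 1.98 and 36.7 to 168, 108 and 58.7 and from 765, 580 and 726 to 329, 398 and 264 (difference 4.05, SE 0.97, adjusted p = 0.015). Neither gene's groups overlapped in either line.

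On the lower side, CD22, a sialic acid-binding lectin best known from B cells, fell from 5349, 10887 and 4704 to 195, 338 and 169 in LN229-R and rose from 15.8, 18.6 and 19.7 to 42.3, 33.4 and 87 in U87-R (difference -6.28, SE 0.54, adjusted p = 1.4e-05). H19, an imprinted long noncoding RNA at chr11:1995176-2001266, fell from 10153, 10627 and 7651 to 32.9, 5.96 and 19.5 in LN229-R and from 25.3, 27 and 110 to 4.07, 8.76 and 2.98 in U87-R. It fell in both lines without overlap, and by more in LN229-R (difference -6.22, SE 0.86). Of 9 oligodendrocyte lineage genes 3 were lower and none higher, among them the transcription factor OLIG2 (-2.49) and the proteoglycan CSPG4 (-2.03). CSPG4 stood at 4385, 4851 and 6695 in U87-R in DMSO.

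TGM2, transglutaminase, fell from 3746, 4706 and 4292 to 413, 380 and 525 in LN229-R and rose from 8009, 7753 and 9765 to 12480, 11419 and 21572 in U87-R (difference -4.06, SE 0.30). MTSS1, an actin-membrane linker, fell from 231, 231 and 260 to 24, 35.6 and 28.7 and rose from 705, 896 and 742 to 1019, 1077 and 1037 (difference -3.43, SE 0.24). C6orf141 (-4.46), NMB, a bombesin-like peptide (-2.80), and TLCD1 (-2.58) also fell in LN229-R and rose in U87-R. BMP6, a bone morphogenetic protein, fell in LN229-R from 677, 1322 and 703 to 36.1, 43.3 and 38.8, with overlapping U87-R groups (difference -4.50, SE 0.41). FAM131B, AATK, WNK4, NRGN, RGS5 and ADAMTS4 were also lower, at -4.40 to -3.57.

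Where 1 line barely expresses a gene, a difference mostly reflects the other line. FFAR1, a fatty acid receptor, had 375, 833 and 271 in DMSO and 0, 3.76 and 0 in STM2457 in LN229-R and at most 2 in U87-R (difference -8.91, SE 0.98). COL9A1 fell from 891, 2202 and 735 to 72.8, 117 and 145 in LN229-R and was listed at 0 in all 3 DMSO libraries of U87-R. PCLO, a presynaptic scaffold, did the opposite, rising from 150, 132 and 93.2 to 980, 1049 and 389 in U87-R with at most 7.4 in LN229-R. CITED1 rose from 253, 179 and 281 to 3713, 2776 and 2176 in LN229-R and stayed at or below 6.29 in U87-R.

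A shared response existed beside these differences. ACP5, a lysosomal acid phosphatase, rose from 82.9, 118 and 122 to 2964, 2377 and 3008 in LN229-R and from 270, 289 and 159 to 1036, 1064 and 1722 in U87-R, and more in LN229-R by 2.28 (SE 0.36). FAM124A rose from 51.8, 27.4 and 46.6 to 368, 239 and 331 and from 56.5, 62.8 and 49.9 to 317, 282 and 287, with a difference of 0.52 (SE 0.37, adjusted p = 0.39, 95% interval -0.27 to 1.31). GDF15, a stress cytokine, rose by 3.89 and 1.98 (difference 1.91, adjusted p = 0.059). SNED1, a matrix protein, fell from 8725, 12316 and 8593 to 3381, 2414 and 3084 and from 3005, 2444 and 2257 to 726, 644 and 883 (difference 0.04, SE 0.25, 95% interval -0.50 to 0.58). MYEF2 fell in both lines, with effects of -2.58 and -2.04. ST8SIA5, a sialyltransferase, fell with effects of -5.45 and -2.88, further in LN229-R (difference -2.56, SE 0.33). No groups overlapped for any of these 6 genes in either line.

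None of 11 m6A writer genes was called in the difference (limma), and 1 was lower with the replicate block. At an unadjusted p under 0.05, 1 of the 11 passed. In each line 4 rose, beside 21.4% of all genes in LN229-R and 8.1% in U87-R. They were the same 4 in both: WTAP, RBM15, RBM15B and METTL16. Of all 15848 genes, 855 rose in both lines. METTL3 had 1237, 1244 and 1283 and then 1193, 1002 and 1191 in LN229-R and 736, 776 and 884 and then 781, 889 and 989 in U87-R. Its groups overlapped in U87-R, and the difference was -0.30 (SE 0.17, adjusted p = 0.28, 95% interval -0.68 to 0.07). WTAP rose by 0.66 and 0.62 and YTHDF2 by 0.76 and 0.79, with differences of 0.04 (SE 0.19) and -0.02 (SE 0.13). Of 13 readers and erasers 1 was higher and none lower, but 1 was higher and 2 lower with the replicate block or without LN229-R DMSO replicate 2, and none was higher and 3 lower with the LN229 names exchanged. The higher one was the mRNA-binding reader IGF2BP3, at 1.15 (SE 0.33), which lost its call without any one of 7 libraries. STM2457 inhibits the enzyme and not its mRNA, so these values do not measure whether it acted. MGMT, the enzyme that reverses temozolomide's O6-guanine lesion, had 205, 194 and 188 and then 169, 190 and 165 in LN229-R and fell from 1548, 1557 and 877 to 739, 724 and 477 in U87-R. Its difference was 0.86 (SE 0.32, adjusted p = 0.098). In the second table MGMT was listed at 0 in all 3 LN229-R columns and at 208, 196 and 191 in LN229, so the LN229-R values depend on which naming is right.

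The parental lines, in 12 other libraries, gave the same contrast between backgrounds. LN229 minus U87 MG passed for 2653 of 16075 genes (16.5%), 1630 higher (10.1%) and 1023 lower (6.36%). With equal library totals the split was 1351 higher and 1568 lower. Of the 2041 genes called in the resistant pair, 2017 were measured here and 1977 had the same sign. Of these, 1300 were also called, 914 higher and 386 lower, which is 64.5% of the resistant calls and 50.3% of the 2586 parental calls among shared genes. Only 1 was called with the opposite sign. Over 15430 genes the 2 differences had a Pearson correlation of 0.689 and a Spearman correlation of 0.696, as a description. CA9 had a parental difference of 5.76 (SE 0.64), SLC16A3 of 3.41 (SE 0.22), NLRC5 of 1.79 (SE 0.36), NUPR1 of 5.14 (SE 0.62) and CD22 of -4.97 (SE 0.50). For TGM2 it was -0.95 (SE 0.54, adjusted p = 0.25), for MYC 0.38 (SE 0.24) and for ERAP1 0.49 (SE 0.20), none past the threshold. The parental pair also differs in background, medium and kit, and these cannot be told apart there either.

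**Figure D5:**
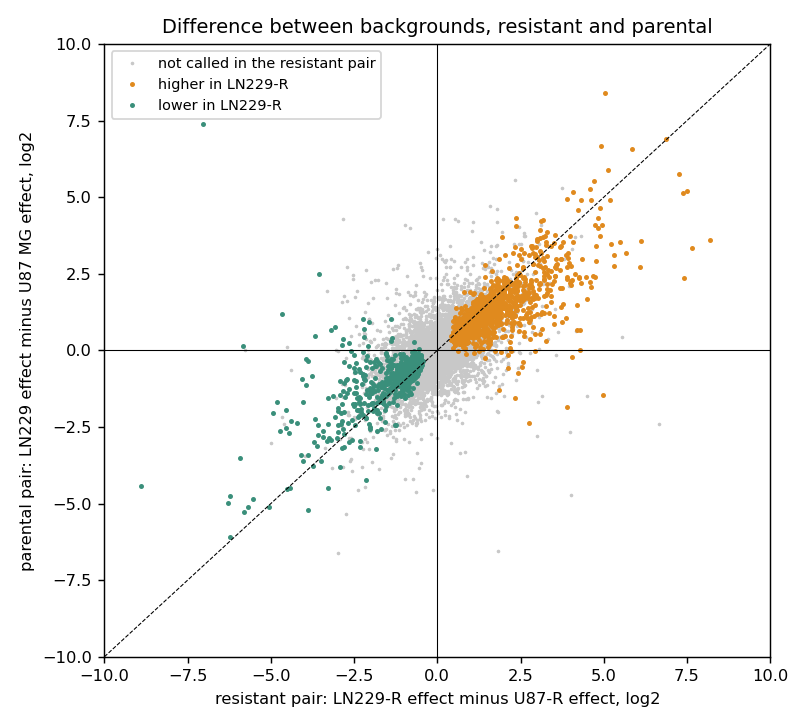
Difference between backgrounds in the resistant pair (horizontal) and the parental pair (vertical), log2, for 15430 genes measured in both. Coloured points are genes called in the resistant pair; 1977 of 2017 lie in the quadrants of equal sign, and the dashed line marks equality.

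Whether the resistant and parental differences themselves differed was tested over all 24 libraries. In limma 1 of 15709 genes passed (0.00637%), with 600 at an unadjusted p under 0.05. The median SE of this contrast was 0.37. The gene was RNA5-8SN2, a 5.8S ribosomal RNA copy, at 89.4, 360 and 78.4 in DMSO and 0 in all 3 STM2457 libraries of LN229-R, and between 3769 and 5074 in U87-R. In LN229 it was at 0 in all 3 DMSO libraries and at 119, 138 and 105 in STM2457, the reverse of LN229-R. It was named after its values were seen, and it is 1 of several near-identical copies, so its counts are uncertain.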

How the data were processed

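RNA was sequenced from LN229-R and U87-R cells and, in 12 further libraries, from their parental lines. The authors' deposited tables, 1 per line, hold gene-level signal values that are normalized counts by their form, and whole reads could not be recovered from them. The submitters' processing notes name Trimmomatic 0.39, STAR 2.7.11a, Salmon 1.4.0, DESeq2 and the builds GRCh38 and hg38, with no roles given. Ensembl identifiers without version joined the tables, genes with a mean of at least 10 over the 12 columns were kept, and a pseudocount of 1 was added before log2. Changes are therefore understated for low genes. limma 3.58.1 (R 4.3.3) with a variance trend and Benjamini-Hochberg adjustment over all tested genes gave every adjusted p, in 1 fit of 4 groups for the difference and in separate fits for each line. A gene was called at an adjusted p under 0.05, and errors are standard errors with 3 libraries a group. Intervals are 95% and not adjusted for the number of genes.

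The gene lists, the rules for named genes and the comparisons were chosen with earlier results of these data known. Outside the 55 lists, genes were named by the size of the difference, with a mean of at least 100 over the 12 libraries and 20 in each table, by opposite direction or by a shared change; genes with 1 line near 0 formed a group of their own. The mean of 20 was taken over both groups of a line. Genes low in DMSO, such as NUPR1, CA9, FGF11 and F11R in LN229-R, met it only through their STM2457 group. Single members of lists were picked for their role or size after their values were seen. Same-numbered libraries correlated in their deviations at 0.175, 0.321 and 0.102 in LN229-R and 0.174, 0.114 and 0.298 in U87-R. DMSO replicate 3 of LN229-R correlated best with STM2457 replicate 1, so pairing by number is uncertain there. The numbers were used as pairs only where the replicate block is named, and counts with the block had been seen earlier. All other counts, standard errors and adjusted p come from fits without the block. On simulated data for the difference, 36.4% of genes changed by a log2 of 1 and 77.8% of those changed by 2 were recovered, with 9.8 false calls on average. In each of 5 simulations 200 genes were changed, in LN229-R only, with noise drawn independently for each library. The real libraries hold more changes, in both lines, and shared deviations, so these figures need not hold for them. Promoter sequences were matched by symbol to RefSeq for 11298 of the 15848 genes. Some genes are not reported here.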

Additional observations from a re-analysis of the deposited data

Results flagged for a closer look

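The difference between the responses of LN229-R and U87-R was tested directly and passed for 2041 genes, and that between LN229 and U87 MG for 2653. The test of the resistant against the parental difference passed for 1 gene. In LN229-R and U87-R, 148 genes were called in opposite directions. All 148 passed the test of the difference, which adds little, since it uses the same libraries. Among those that rose in LN229-R and fell in U87-R, the differences were 7.25 for CA9, 5.21 for FGF11, 4.61 for IGFBP5, 4.47 for CCL2, 4.05 for F11R and 3.95 for STC2. Among those that fell in LN229-R and rose in U87-R, they were -6.28 for CD22, -4.46 for C6orf141, -4.06 for TGM2, -3.43 for MTSS1, -2.80 for NMB and -2.58 for TLCD1. Background, medium, serum and library kit cannot be told apart in any of these.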

How the results depend on the processing

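Of 115 named genes called in the difference, 109 stayed called without each of the 12 libraries in turn. None of the 115 reversed under any setting tried. Many of the 115 were picked after their values were seen, so these counts do not describe all called genes. Of all 2041 genes called in the difference, 1471 stayed called without LN229-R DMSO replicate 3, the fewest for any library. The most, 1726, stayed called without LN229-R STM2457 replicate 2. The difference count was 3825 with the replicate block, 896 at an adjusted p under 0.01 and 1247 with a log2 change of at least 1, and 1515 to 2002 when single libraries were left out. In LN229-R it was 3245 and 2392 at those stricter thresholds, and 3948 to 5817 without single libraries. In U87-R it was 4511 with the replicate block, 1152 without a variance trend, 751 and 581 at the stricter thresholds, and 542 to 1844 without single libraries. In the parental pair it was 1182 and 1243, and 1902 to 2658 without single libraries. For the difference of differences it was 6 with the block, 4 with separate fits, 2 with the LN229 names exchanged and 1 to 3 without single libraries.

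With those names exchanged the difference count was 2512, of which 1599 were shared with the 2041, and 102 of the 115 named genes stayed called. The other 13 were IFI44L, CSMD1, ACP5, IGF2BP3, MITF, SQSTM1, GPNMB, SRXN1, MPG, ABCC3, MYC, ISG15 and CXCL1. CTSH lost its call with a pseudocount of 5 and IGF2BP3 with equal totals. The causes were not tested. Depth per gene is not known from normalized values, so genes near 0 carry no counting interval.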

Other observations

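PLOD2, a lysyl hydroxylase, stood at 5543, 4639 and 5866 in DMSO and 7098, 7183 and 8800 in STM2457 in LN229-R, and at 7116, 7942 and 10159 and then 3256, 3001 and 2974 in U87-R. LOXL2, a lysyl oxidase, had a difference of 2.00 (SE 0.36). PLOD2 and LOXL2 rose in LN229-R and fell in U87-R. Of 29 genes of the TGF-beta and BMP pathway 6 were higher and 2 lower, among them the ligand TGFB2 at 2.48 (SE 0.27) and the inhibitory SMAD6 at 2.23 (SE 0.42).

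Base excision repair, which removes alkylated bases, had 4 of 18 genes lower and 1 higher, and 10 lower and 1 higher with the replicate block. MPG, the alkyladenine glycosylase, had a difference of -0.82 (SE 0.22), which lost its call without any one of 5 libraries, and POLB, the gap-filling polymerase, of 1.03 (SE 0.22). Of 33 autophagy genes 4 were higher and 2 lower, shares near the 8.52% and 4.35% of all genes, with the receptor SQSTM1 at 1.31 (SE 0.24) and GABARAPL1 at 1.57 (SE 0.37).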
